A study of Mus musculus with 12 samples.

Results

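Acetyl-CoA is the activated form in which cells carry acetyl groups, and 10 enzymes and carriers that make, move or spend it were followed in the mouse ventral hippocampus. They were Acss1, Acss2, Acly, Acaca, Acacb, Acat1, Acat2, Crat, Slc25a1 and Pdha1. They were chosen by name, and the 10 matching rows were taken from a deposited table of 54532 genes. All 10 were among the 16915 genes with enough counts to be tested.

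RNA sequencing covered 12 libraries in 4 groups of 3. SSDS-shACOT12 mice had hepatic knockdown of ACOT12, a liver thioesterase that splits acetyl-CoA to acetate, and were exposed to SSDS. SSDS-GFP mice received AAV8-eGFP and the same SSDS, CSDS mice were exposed to CSDS, and control mice had none of these treatments. All 12 libraries carry the genotype label WT, and the labels used here give no strain, age or sex. The labels leave SSDS and CSDS as abbreviations, which in this field usually mean subthreshold and chronic social defeat stress. The data columns of both SSDS groups carry the letters TBG, also unexplained, which in AAV work usually name a hepatocyte promoter. Both SSDS groups differ from control in virus and in SSDS, and these cannot be told apart. Whether replicates come from separate animals is not stated, so a p-value covers only the spread between these libraries.

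In textbook biochemistry, mitochondria make acetyl-CoA from pyruvate, acetate, ketone bodies and fatty acids. The acetyl group cannot cross the inner membrane as acetyl-CoA, so it leaves as citrate or acetylcarnitine and is released again in the cytosol. There it feeds fatty acid and sterol synthesis, and in the nucleus it is the acetyl donor for histones. In mouse hippocampal neurons Acss2 is known for supplying nuclear acetyl-CoA from acetate.

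The libraries held 14656714 to 17694570 counts. Of 11 neuron markers all 11 had counts in every library, and Slc17a7, the vesicular glutamate transporter of hippocampal excitatory neurons, had 20845 to 42850 counts. Acot12 itself had 3 to 14 counts per library, which checks neither a hepatic knockdown nor the labels. The leading principal component of log2 CPM (31.3% of the variance) set 3 libraries apart, SSDS-shACOT12 3 with a score of 63.1, SSDS-shACOT12 1 with 37.4 and SSDS-GFP 3 with 35.7, while the next highest score was 5.82. Genes of the mitochondrial genome made up 4.31% (SSDS-shACOT12 3) and 3.23% (SSDS-shACOT12 1) of the counts, and 6.31% to 9.24% in the remaining 10 libraries. Results are therefore also given without these 3 libraries where they rest on them. That setting leaves only SSDS-shACOT12 2 in its group, and SSDS-GFP 1 and 2 in theirs. Its SSDS-shACOT12 differences therefore rest on that library alone.

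Promoter sequences are shown for Acat2, Slc25a1 and Acly, the 3 members with the largest positive differences between SSDS-shACOT12 and control. Each is the 250 bases before the RefSeq start (GRCm38.p6), written 5′ to 3′ along the gene's strand, and capitals mark GGGCGG (a GC box), CCAAT or CACGTG (an E-box) on either strand. For Acat2 the window is chr17:12960726-12960975, for Slc25a1 chr16:17928220-17928469 and for Acly chr11:100528001-100528250, each on the minus strand.
Acat2: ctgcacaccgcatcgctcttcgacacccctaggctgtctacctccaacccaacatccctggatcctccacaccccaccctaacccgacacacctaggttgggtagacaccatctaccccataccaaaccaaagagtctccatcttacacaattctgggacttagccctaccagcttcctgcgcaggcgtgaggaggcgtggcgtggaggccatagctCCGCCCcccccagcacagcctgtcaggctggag
Slc25a1: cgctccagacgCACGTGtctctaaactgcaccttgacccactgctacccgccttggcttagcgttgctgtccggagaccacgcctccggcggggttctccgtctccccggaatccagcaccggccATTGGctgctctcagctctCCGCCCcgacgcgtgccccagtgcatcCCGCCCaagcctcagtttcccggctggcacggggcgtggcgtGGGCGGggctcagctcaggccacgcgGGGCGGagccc
Acly: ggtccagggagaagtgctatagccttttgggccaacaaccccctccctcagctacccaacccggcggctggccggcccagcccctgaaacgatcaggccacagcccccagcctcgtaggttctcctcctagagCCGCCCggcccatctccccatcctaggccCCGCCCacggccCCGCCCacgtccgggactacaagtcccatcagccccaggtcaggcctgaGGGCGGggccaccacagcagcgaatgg
The RefSeq start of Acat2 lies 22 bases inside the gene's span in the deposited table, while the other windows end at the gene's edge.

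The Acly and Slc25a1 windows each held 4 GC boxes, and the Acat2 window held 1. Slc25a1 also had the CCAAT letters 125 to 121 bases before the start and the E-box 239 to 234 bases before it. Of the 8 members with a RefSeq promoter, 5 (Acat2, Acly, Acss1, Acss2 and Slc25a1) held GGGCGG, against 32.7% of all 32851 promoters of this length. CCAAT was found in 3 of the 8 (Acacb, Acss2 and Slc25a1) against 33.8% of all, and CACGTG in 1 against 6.02%. TCACNCCAC, letters used here for the sterol response element, matched 0 of the 8 and 1.05% of all promoters. The RefSeq starts of Acaca and Acacb lie 65.8 and 19.0 kilobases inside their genes' spans in the deposited table, and those of the other 6 within 1 kilobase of the edge. Over these 6, GGGCGG was found in 5, CCAAT in 2, CACGTG in 1 and TCACNCCAC in 0. No base lay in 2 of these motifs. These matches describe letters in a window and not binding.

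Pdha1 transcripts were the most abundant of the 10 per unit of length and Acacb transcripts the least, 95.4 times apart in mean FPKM (fragments scaled by gene length and library size, as deposited). Over the 12 libraries Pdha1 averaged 43.8 ± 2.95 FPKM, Acat1 27.0 ± 1.5 FPKM and Acly 23.3 ± 2.83 FPKM (SD, n = 12). Acat2 and Slc25a1 came next at 15.9 ± 4.12 and 15.2 ± 3.89 FPKM. Lower levels were found for Acss1 (8.02 ± 0.55 FPKM), Crat (6.53 ± 0.82 FPKM), Acss2 (4.82 ± 0.43 FPKM) and Acaca (3.26 ± 0.42 FPKM), and Acacb averaged 0.459 ± 0.208 FPKM.

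This order was the same in every library for all neighbours but Acat2 and Slc25a1, where Acat2 was the higher in 8 of 12 libraries. The ranges over libraries did not overlap between Pdha1 and Acat1, Slc25a1 and Acss1, Crat and Acss2, or Acaca and Acacb. They overlapped between the other neighbours. Within each enzyme family, mitochondrial Acss1 and Acat1 were higher in FPKM than their cytosolic counterparts Acss2 and Acat2 in all 12 libraries. For Acss1 this rests on the deposited gene lengths, 4128 bases against 10163 for Acss2. In counts scaled only to library size (CPM) Acss2 was the higher, at 42.9 to 57.0 against 29.9 to 37.4 for Acss1.

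**Figure D1:**
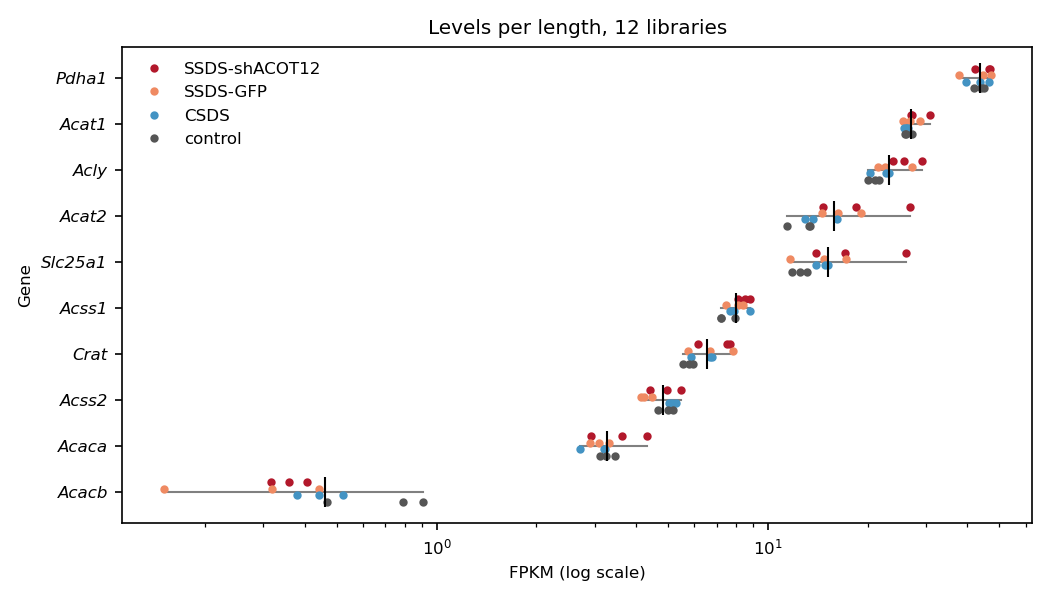
FPKM of each gene on a log axis, 1 point per library coloured by group, with a grey line from the lowest to the highest library and a black tick at the mean of 12 libraries. Pdha1 lies furthest right at a mean of 43.8 FPKM and Acacb furthest left at 0.459 FPKM, with the widest relative spread.

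Mitochondrial Acat1, Pdha1 and Acss1 were the steadiest members between libraries. The SD of log2 CPM (CPM, counts scaled to library size after TMM scaling) over the 12 libraries was 0.083 for Acat1, 0.097 for Pdha1 and 0.105 for Acss1, against a median of 0.288 over all tested genes. Only 0.633%, 1.47% and 2.35% of tested genes had a lower SD. Acat2 (0.335) and Slc25a1 (0.324) lay above that median, and Acacb (0.643) varied more than 91.1% of tested genes. Acss2 (0.135), Acly (0.169), Acaca (0.184) and Crat (0.186) lay below it. SD depends on count depth, and Acacb had 22 to 137 counts per library where Pdha1 had 2408 to 2995.

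**Figure D2:**
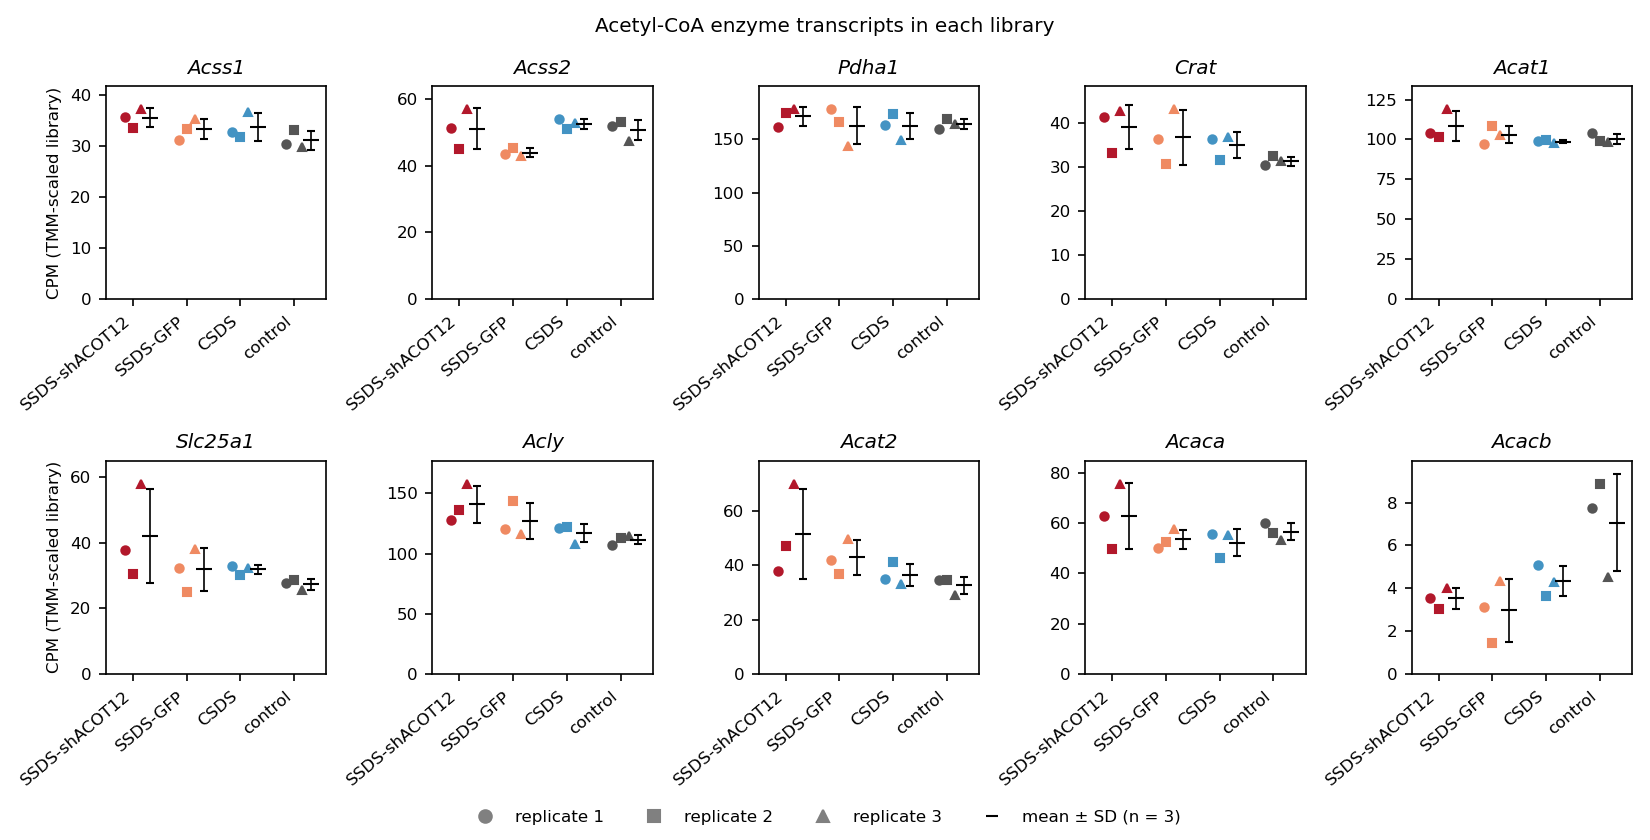
CPM of the TMM-scaled library for each gene in the 3 libraries of each group, with the mean ± SD (n = 3) as a black bar and a linear axis that starts at 0. Slc25a1 and Acat2 are highest in SSDS-shACOT12 3, at 58.1 and 70.1 CPM, and Acacb is highest in control 2 at 8.89 CPM.

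Comparing SSDS-shACOT12 with SSDS-GFP addresses the effect of the liver knockdown on this brain region, with SSDS in both groups. All 10 members had a positive log2 fold change, with a median of 0.18, against 52.0% positive and a median of 0.01 over all tested genes. Without SSDS-shACOT12 3 the members' median was 0.06 (9 positive), and without the 3 libraries apart 0.04 (7 positive). Medians of the related gene lists described below ran from -0.07 (pyruvate dehydrogenase, 5 of 13 positive) to 0.29 (mevalonate and ketone body enzymes, 12 of 14). Of the citrate cycle genes 15 of 17 were positive. No member passed the test: edgeR called 0 of 10 members at an adjusted p under 0.05, and 0% of all genes. At an unadjusted p under 0.05 there were 0 members and 4.53% of all genes. DESeq2 and limma, on counts or FPKM with 0.1 added, also called 0 members and 0% of all genes. For no member did the groups' libraries separate, where 2.23% of all genes were higher and 2.58% lower in every SSDS-shACOT12 library. The labels name no pairing, and libraries of the same number were taken as pairs because their deviations correlated in these same data. Pair counts and the block below are therefore not independent of the values compared. By that pairing 2 members, Acss1 and Slc25a1, were higher in SSDS-shACOT12 in all 3 pairs, against 15% of all genes. The other 8 were higher in 2 of 3 pairs, and 0 members were lower in all 3, against 17.6%. On these 6 libraries with the pairs as a block, 1 member, Slc25a1, had an unadjusted p under 0.05, against 8.92% of all genes, and edgeR called 0.

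The largest of these differences was that of Slc25a1, the carrier that exports citrate from mitochondria (ENSMUSG00000003528, chromosome 16, 17925223 to 17928219, mm10). It had 37.7, 30.4 and 58.1 CPM in SSDS-shACOT12 and 32.5, 25.1 and 38.0 CPM in SSDS-GFP. The log2 fold change was 0.40 ± 0.21 (SE, adjusted p = 0.803), and 0.10 without SSDS-shACOT12 3. Acat2, the cytosolic thiolase that joins acetyl-CoA units at the start of sterol synthesis (ENSMUSG00000023832, chromosome 17, 12942890 to 12960747), had 37.9, 46.9 and 70.1 CPM in SSDS-shACOT12 and 42.1, 36.9 and 49.7 CPM in SSDS-GFP. Its log2 fold change of 0.27 ± 0.20 (SE, adjusted p = 0.803) was -0.01 without SSDS-shACOT12 3. In both genes the highest library of the 6 was SSDS-shACOT12 3, whose members summed to 801 CPM against 599 to 664 CPM in the other 11 libraries.

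Among the acetate enzymes, Acss2 (ENSMUSG00000027605, chromosome 2, 155517948 to 155585724) had 51.4, 44.9 and 57.0 CPM in SSDS-shACOT12 and 43.5, 45.3 and 42.9 CPM in SSDS-GFP. Its log2 fold change was 0.22 ± 0.11 (SE, adjusted p = 0.803). The SSDS-shACOT12 libraries 1 and 3 lay above all SSDS-GFP libraries and library 2 within them. Acss1, which makes acetyl-CoA from acetate in mitochondria (ENSMUSG00000027452, chromosome 2, 150618105 to 150668500), differed by 0.09 ± 0.11 on the log2 scale. The 95% confidence intervals of the log2 difference ran from -0.03 to 0.47 for Acss2 and from -0.15 to 0.33 for Acss1. Without the 3 libraries apart, SSDS-shACOT12 2 alone stood against SSDS-GFP 1 and 2. There the log2 fold changes of 7 members stayed positive and those of Acaca (-0.04), Acat1 (-0.01) and Crat (-0.01) did not.

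**Figure D3:**
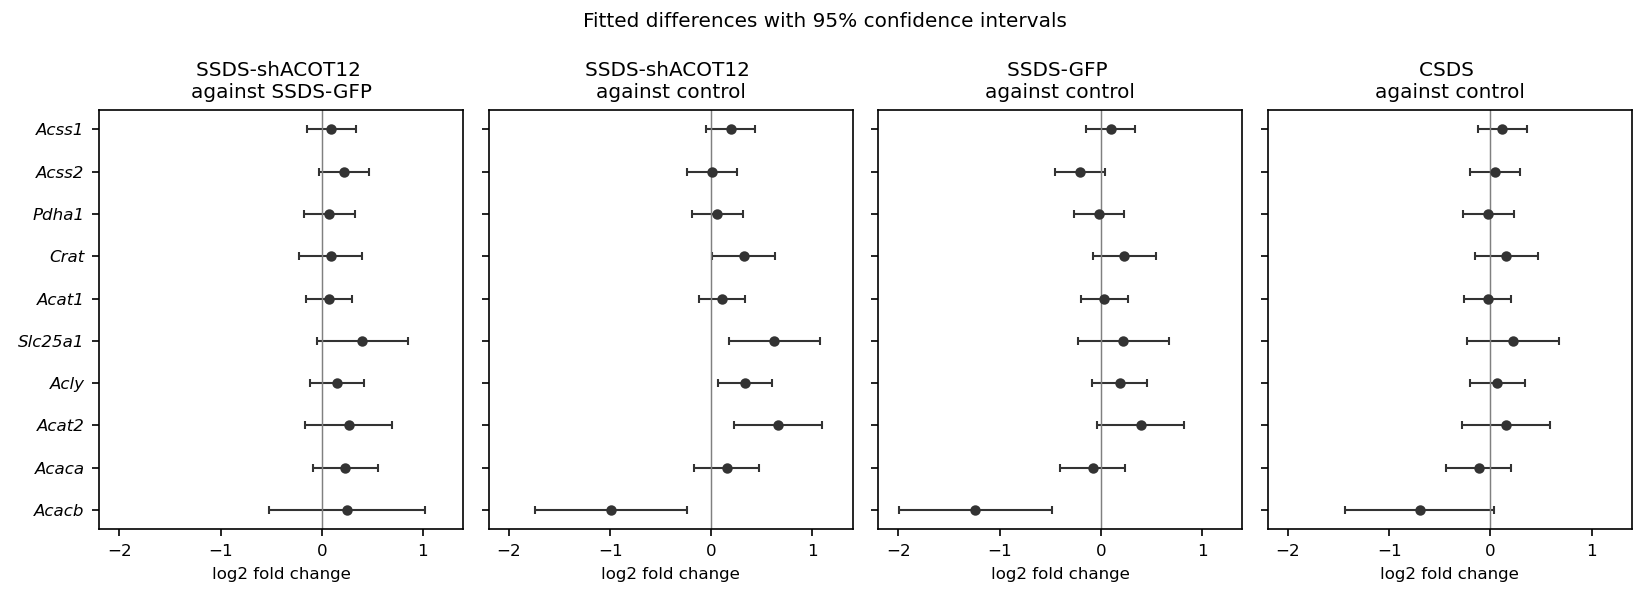
Fitted log2 fold changes (points) with 95% confidence intervals (bars) from the edgeR fit, 1 panel per comparison and 1 row per gene. The intervals of Acacb lie below 0 in both SSDS groups against control, and those of Slc25a1, Acly, Acat2 and Crat lie above 0 in SSDS-shACOT12 against control, before adjustment for the number of genes tested.

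SSDS-shACOT12 against control combines virus, SSDS and hepatic knockdown. The largest positive log2 fold changes were those of Acat2, Slc25a1 and Acly, and Acacb had the only negative one. By edgeR 0 of 10 members passed the adjusted threshold, as did 0.0828% of all genes. At an unadjusted p under 0.05 there were 5 members (Acly, Acacb, Acat2, Crat and Slc25a1), against 24.2% of all genes. DESeq2 called 2 members, Acat2 (adjusted p = 0.0325) and Acacb (adjusted p = 0.0464), and 8.83% of all genes. Limma-voom with library quality weights called 4, namely Acly, Acat2, Crat and Slc25a1, and 24.7% of all genes. Limma-trend on FPKM with 0.1 added called 0 members and 0.0828% of all genes. Without SSDS-shACOT12 2 edgeR called 3 members (Acat2, Crat and Slc25a1) and 24.5% of all genes, and without SSDS-shACOT12 1 it called 1, Acat2, and 1.74% of all genes. Every SSDS-shACOT12 library lay above every control library for 5 members (Acss1, Acly, Acat2, Crat and Slc25a1), against 14% of all genes, and below for 1 (Acacb), against 11.6%.

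Acat2 had 37.9, 46.9 and 70.1 CPM in SSDS-shACOT12 and 34.5, 34.5 and 29.1 CPM in control. The ratio was 1.58-fold (95% confidence interval 1.17 to 2.13), which on the log2 scale is 0.66 ± 0.20 (SE, adjusted p = 0.0877 by edgeR). The groups did not overlap, and SSDS-shACOT12 1 lay closest to control. Without SSDS-shACOT12 3 the log2 fold change was 0.37. Without the 3 libraries apart, with only SSDS-shACOT12 2 left in its group, it was 0.54. Part of the Acat2 transcript is shared with a neighbouring paralogue, since 39.1% of its 50-base words also occur in Acat3. Acat3 had 46 to 96 counts per library, so the split of reads between the pair is uncertain.

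Slc25a1 had 37.7, 30.4 and 58.1 CPM in SSDS-shACOT12 and 27.7, 28.7 and 25.6 CPM in control. Its log2 fold change was 0.62 ± 0.21 (SE, adjusted p = 0.105), and 0.17 without the 3 libraries apart. Acly, which splits exported citrate to release acetyl-CoA in the cytosol (ENSMUSG00000020917, chromosome 11, 100476353 to 100528000), had 128, 137 and 158 CPM in SSDS-shACOT12 and 107, 113 and 115 CPM in control. The difference on the log2 scale was 0.34 ± 0.12 (SE, adjusted p = 0.130), and 0.31 without the 3 libraries apart. Of the 2 steps from mitochondrial citrate to cytosolic acetyl-CoA, the carrier was thus the one whose difference depended more on those libraries. Without them only SSDS-shACOT12 2 is left to compare with control.

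Crat, the carnitine acetyltransferase that turns acetyl-CoA into acetylcarnitine and back (ENSMUSG00000026853, chromosome 2, 30400471 to 30415813), had 41.4, 33.3 and 42.7 CPM in SSDS-shACOT12 and 30.4, 32.4 and 31.3 CPM in control. Its log2 fold change was 0.32 ± 0.14 (SE, adjusted p = 0.198), and 0.10 without the 3 libraries apart. SSDS-shACOT12 2 lay just above the highest control library. Acss1 averaged 35.6 ± 1.87 CPM in SSDS-shACOT12 and 31.2 ± 1.81 CPM in control (SD, n = 3 each), without overlap. Acss2 averaged 51.1 ± 6.06 CPM in SSDS-shACOT12 and 50.8 ± 2.98 CPM in control, and its log2 fold change of 0.01 lay between -0.24 and 0.26 (95% confidence interval).

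Fitted differences were small in every comparison for Pdha1 and Acat1, the members of core mitochondrial metabolism. Pdha1, the alpha subunit of the first enzyme of the pyruvate dehydrogenase complex (ENSMUSG00000031299, chromosome X, 160122209 to 160138413), averaged 171 ± 9.13 CPM in SSDS-shACOT12, 163 ± 17.6 CPM in SSDS-GFP, 162 ± 12.3 CPM in CSDS and 164 ± 4.85 CPM in control (SD, n = 3 each). Acat1, the mitochondrial thiolase of ketone body and isoleucine metabolism (ENSMUSG00000032047, chromosome 9, 53580522 to 53610382), averaged 108 ± 9.50, 103 ± 5.41, 98.7 ± 0.86 and 100.5 ± 3.09 CPM in SSDS-shACOT12, SSDS-GFP, CSDS and control. In SSDS-shACOT12 against control, the 95% confidence interval of the log2 fold change was -0.19 to 0.31 for Pdha1 and -0.12 to 0.34 for Acat1. Pdha1 overlaps Map3k15 on the opposite strand and shares 12.5% of its 50-base words with it, but Map3k15 had 251 counts over all libraries against 31602 for Pdha1.

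Acacb carried the lowest levels and the largest negative differences. It encodes the acetyl-CoA carboxylase of the outer mitochondrial membrane, whose malonyl-CoA restrains fatty acid entry into mitochondria (ENSMUSG00000042010, chromosome 5, 114146535 to 114250761). Its levels were 3.53, 3.06 and 4.03 CPM in SSDS-shACOT12 and 3.10, 1.44 and 4.35 CPM in SSDS-GFP. In CSDS they were 5.07, 3.66 and 4.29 CPM, and in control 7.76, 8.89 and 4.52 CPM. Both SSDS groups lay wholly below control, although control 3 was close to SSDS-GFP 3.

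Against control, the log2 fold change of Acacb was -0.99 ± 0.35 in SSDS-shACOT12 (SE, adjusted p = 0.115), -1.24 ± 0.35 in SSDS-GFP (adjusted p = 0.142) and -0.70 ± 0.34 in CSDS (adjusted p = 0.863). These 3 comparisons share the control libraries. For SSDS-GFP the DESeq2 Wald test called it at an adjusted p of 0.0231. EdgeR did so at an adjusted p of 0.0456 without the 3 libraries apart, where it called 1.21% of all genes. Choroid plexus markers stood high in control 1 and 2, mostly through Ttr. That gene had 504, 141 and 7.91 CPM in control 1, 2 and 3, against 1.03 to 16.6 CPM in the other groups. The summed level of the markers was 18.0 to 35.2 CPM in SSDS-shACOT12, 19.6 to 46.1 in SSDS-GFP, 21.3 to 31.7 in CSDS and 566, 175 and 43.3 CPM in control 1, 2 and 3. Of the 10 markers 5 had enough counts to be tested, and Folr1, Otx2 and Slc4a5 reached 0 counts in some libraries. Against control all 5 had negative log2 fold changes in each group. Their medians were -0.98 in SSDS-shACOT12, -0.78 in SSDS-GFP and -0.81 in CSDS. EdgeR called 0 of these 5 in any comparison. Adipocyte and hepatocyte markers, of tissues rich in Acacb, summed to at most 5.57 CPM in any library, in SSDS-shACOT12 3, where Alb had 17 counts. Their part in the Acacb levels was not tested. In bulk tissue, fewer cells of a type and less RNA per cell cannot be told apart.

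Acaca, the cytosolic carboxylase that commits acetyl-CoA to fatty acid synthesis (ENSMUSG00000020532, chromosome 11, 84129672 to 84401651), had 63.0, 49.8 and 75.8 CPM in SSDS-shACOT12 and 50.2, 52.6 and 57.8 CPM in SSDS-GFP. It had 55.5, 46.2 and 55.2 CPM in CSDS and 60.1, 56.2 and 53.5 CPM in control. All groups overlapped with control, and the 95% confidence interval of its log2 fold change included 0 in all 4 comparisons. Of its 50-base transcript words 29.2% also occur in the pseudogene Gm5182, which had 52 to 92 counts per library.

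**Figure D4:**
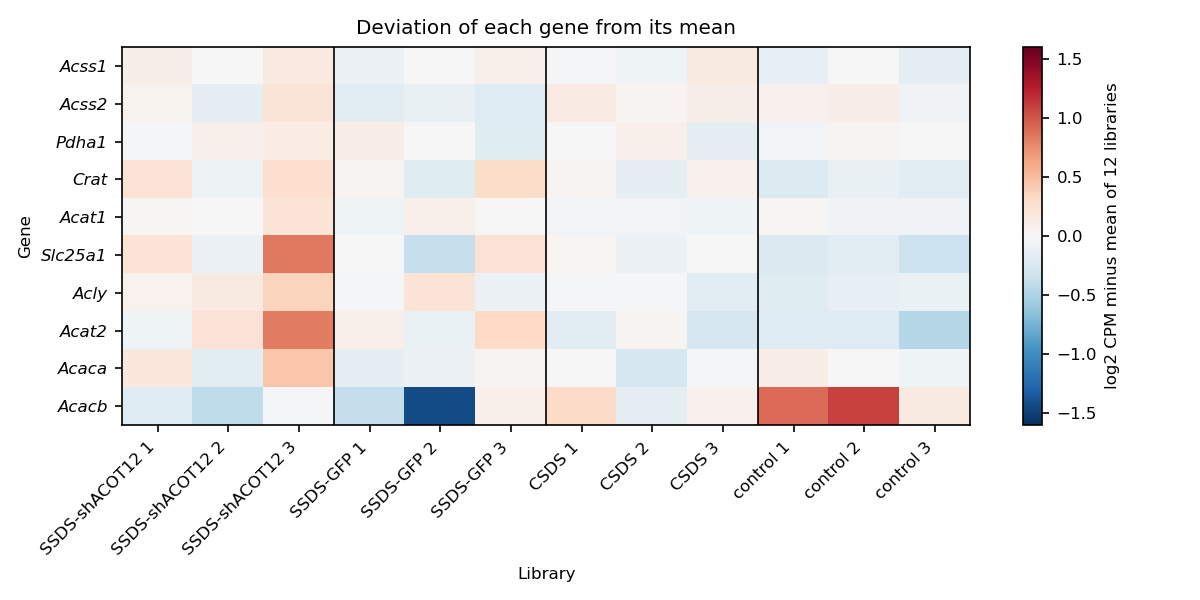
Log2 CPM of each gene (rows) in each library (columns) minus the gene's mean over 12 libraries, with red above and blue below that mean and black lines between groups. SSDS-shACOT12 3 is above the mean for all genes but Acacb, and Acacb is lowest in SSDS-GFP 2 and highest in control 1 and 2.

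SSDS-GFP against control combines virus and SSDS without the knockdown. By edgeR 0 of 10 members passed, against 0.0946% of all genes. At an unadjusted p under 0.05 there was 1 member, Acacb, against 15.2% of all genes. DESeq2 called 1 member, Acacb, and 3.14% of all genes. Limma-voom with quality weights also called Acacb alone, and 13.2% of all genes, and limma-trend on FPKM with 0.1 added called 0 members and 0.0709%. Acly and Acat2 were higher in every SSDS-GFP library, 2 members against 12.5% of all genes, and Acss2 and Acacb were lower in every one, against 11.4%.

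Acss2 had 43.5, 45.3 and 42.9 CPM in SSDS-GFP and 51.8, 53.1 and 47.4 CPM in control. Its log2 fold change was -0.21 ± 0.11 (SE, adjusted p = 0.407), and SSDS-GFP was the group with its lowest mean. Acly had 121, 144 and 116 CPM in SSDS-GFP, all above the highest control library at 115 CPM, and a log2 fold change of 0.19 ± 0.12 (adjusted p = 0.499). Acat2 had 42.1, 36.9 and 49.7 CPM in SSDS-GFP, all above control, with a log2 fold change of 0.39 ± 0.20 (adjusted p = 0.370). The direction of the Acss2 difference thus ran against those of Acly and Acat2. Libraries separated for all 3, as they did upward for 12.5% and downward for 11.4% of all genes. The unadjusted edgeR p was 0.0917 for Acss2, 0.159 for Acly and 0.0703 for Acat2.

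In CSDS against control, which involves no virus label, the fitted differences were small for all members but Acacb. There were 6 positive and 4 negative log2 fold changes, with a median of 0.06. By edgeR 0 of 10 members passed, against 0% of all genes, and 0 members against 5.87% of all genes had an unadjusted p under 0.05. That fit takes each gene's spread from all 12 libraries together. The median SD of log2 CPM was 0.308 in SSDS-shACOT12 and 0.246 in SSDS-GFP, against 0.157 in CSDS and 0.155 in control. Fitted to only the 6 CSDS and control libraries, 2 members (Acacb and Slc25a1) and 15.5% of all genes had an unadjusted edgeR p under 0.05. DESeq2, limma-voom with quality weights and limma-trend on FPKM with 0.1 added called 0 members, and 0.0355%, 0.201% and 0% of all genes. Apart from Acacb, every member's fitted difference lay between -0.11 (Acaca) and 0.22 (Slc25a1) on the log2 scale.

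Slc25a1 was the single member that separated these groups, with 33.1, 30.3 and 32.4 CPM in CSDS, all above the control libraries at 27.7, 28.7 and 25.6 CPM. Its log2 fold change was 0.22 ± 0.21 (SE, adjusted p = 0.925), and 10.2% of all genes were higher in every CSDS library and 10.1% lower. This SE comes from the fit to all 12 libraries. The SD of log2 CPM of Slc25a1 was 0.066 in CSDS and 0.082 in control, against 0.475 in SSDS-shACOT12 and 0.300 in SSDS-GFP. Red blood cell markers summed to 332 to 386 CPM in CSDS and 87.8 to 120 CPM in control, with all 5 detected in every library. All 5 were higher in CSDS, with a median log2 fold change of 1.68 and an unadjusted edgeR p under 0.05. EdgeR called 0 of these 5 markers and 0% of all genes. Their part in these values was not tested.

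Over all 4 groups, edgeR's test for any difference called 0 of 10 members and 0.0887% of all genes. At an unadjusted p under 0.05 there were 2 members, Acacb and Acat2, against 14.4% of all genes. DESeq2's likelihood ratio test called 1 member, Acacb (adjusted p = 0.0445), and 4.35% of all genes. Limma-trend on FPKM with 0.1 added called 0 members and 0.0828% of all genes, and limma-voom with quality weights called 2 members and 26.2%. Without SSDS-shACOT12 2 edgeR called 1 member, Slc25a1 (adjusted p = 0.0488), and 12.6% of all genes.

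Ratios between members within a library do not depend on how that library was scaled, and they set alternative routes against each other. The level of a ratio does depend on the gene lengths used, which are the same in all libraries. The 4 ratios were taken from FPKM and tested over the 4 groups by an exact permutation test of the F statistic of the log2 ratio. It covered all 369600 assignments of 12 libraries, with a smallest possible p of 6.49e-05 and Benjamini-Hochberg adjustment over the 4 ratios. Since 14.4% of single genes had an unadjusted p under 0.05 for any difference in these libraries, a ratio past the threshold is not by that fact particular to these genes. A replicate block was also tried. It takes equal numbers as blocks in all 4 groups, although all 3 same-number correlations passed the bound only between both SSDS groups. Of the 4 ratios 3 passed, and none of the 3 did with the replicate block (adjusted p = 0.0602 for each), without the 3 libraries apart (adjusted p = 0.0656 for each), or without control 1 (adjusted p = 0.0725 for each).

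The ratio of Acly to Acss2 sets cytosolic acetyl-CoA from citrate against that from acetate. It was 4.80, 5.86 and 5.34 in SSDS-shACOT12 and 5.34, 6.12 and 5.20 in SSDS-GFP. In CSDS it was 4.32, 4.61 and 3.96, and in control 4.00, 4.09 and 4.65. All 6 SSDS libraries lay above all 6 others, and the test passed (exact permutation p = 0.0130, adjusted p = 0.0202). Without control 2 the adjusted p was 0.0682.

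Cytosolic was set against mitochondrial acetyl-CoA synthetase next. The ratio of Acss2 to Acss1 was 0.584, 0.542 and 0.620 in SSDS-shACOT12, 0.564, 0.551 and 0.494 in SSDS-GFP, 0.669, 0.652 and 0.581 in CSDS and 0.693, 0.649 and 0.645 in control. All 6 SSDS libraries lay below all 3 control libraries, while CSDS 3 lay among the SSDS values. The test passed (exact permutation p = 0.0150, adjusted p = 0.0202). The adjusted p was 0.0682 without control 2 and 0.0622 without SSDS-GFP 3. Both ratios contain Acss2, so they are not independent. Acss2 also overlaps Gss and, by 290 bases, Ggt7 on the opposite strand. Of its 50-base words 6.13% occur in another gene, 2.41% in Gss. The kit name does not mark strand, so the assignment of reads in these overlaps is uncertain.

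The last ratio to pass was that of the carboxylases. The ratio of Acaca to Acacb was 10.1, 9.20 and 10.6 in SSDS-shACOT12 and 9.12, 20.5 and 7.50 in SSDS-GFP, against 6.17, 7.12 and 7.27 in CSDS and 4.37, 3.57 and 6.67 in control. Every SSDS library exceeded every CSDS and control library (exact permutation p = 0.0151, adjusted p = 0.0202). Without control 2 the adjusted p was 0.111. Control 1 and 2 are the libraries with the highest choroid plexus marker levels given above.

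The thiolases did not pass. The ratio of Acat2 to Acat1 averaged 0.696 in SSDS-shACOT12, 0.618 in SSDS-GFP, 0.545 in CSDS and 0.480 in control, with an exact permutation p of 0.112 (adjusted p = 0.112). The SSDS-shACOT12 values of 0.539, 0.681 and 0.868 spanned those of SSDS-GFP, and without SSDS-shACOT12 1 the exact permutation p was 0.0340 (adjusted p = 0.0347).

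Other genes of acetyl-CoA metabolism were read from 7 lists with 111 genes, of which 110 were tested and Chat had too few counts. By edgeR 0 rose and 0 fell in each of the 4 comparisons. At an unadjusted p under 0.05 there were 31 in SSDS-shACOT12 against control (22 higher and 9 lower), 14 in SSDS-GFP against control, 5 in CSDS against control and 4 in SSDS-shACOT12 against SSDS-GFP. In the same order, the shares of all genes were 24.2%, 15.2%, 5.87% and 4.53%.

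In SSDS-shACOT12 against control, the 14 mevalonate and ketone body enzymes had 12 positive and 2 negative log2 fold changes with a median of 0.35, and the 17 citrate cycle genes had 15 and 2 with a median of 0.24. The median over all tested genes was 0.01. The 13 genes of the pyruvate dehydrogenase complex and its regulators had 5 positive and 8 negative values and a median of -0.19. Fatty acid oxidation (16 genes, median 0.08), acetyl transfer and transport (15 genes, median -0.06), thioesterases and malonyl-CoA enzymes (13 genes, median 0.18) and regulators of these enzymes (22 genes, median 0.12) lay between. Without the 3 libraries apart, which include 2 of the SSDS-shACOT12 libraries, the medians were 0.09 for the mevalonate and ketone body enzymes (9 positive and 5 negative), 0.07 for the citrate cycle (11 and 6) and 0.05 for the pyruvate dehydrogenase list (8 and 5). Those of the thioesterases (-0.17) and fatty acid oxidation (-0.03) were negative there, and the median over all tested genes was -0.00087. Without SSDS-shACOT12 3 alone, the medians of the mevalonate and citrate cycle lists were 0.18 and 0.14.

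The smallest p of these genes in that comparison belonged to Acot7, the acyl-CoA thioesterase abundant in brain, and to Pdpr and Pdp2, which encode subunits of pyruvate dehydrogenase phosphatase. Acot7 had 334, 316 and 489 CPM in SSDS-shACOT12 and 221, 228 and 208 CPM in control, with a log2 difference of 0.79 ± 0.16 (SE, adjusted p = 0.0531). Pdpr, the regulatory subunit of pyruvate dehydrogenase phosphatase, had 12.7, 10.2 and 6.81 CPM in SSDS-shACOT12 and 20.6, 16.9 and 22.4 CPM in control (log2 fold change -1.01 ± 0.24, adjusted p = 0.0574). Pdp2, a catalytic subunit of that phosphatase, had 6.12, 6.75 and 5.51 CPM in SSDS-shACOT12 and 9.15, 10.3 and 8.92 CPM in control (log2 fold change -0.63 ± 0.16, adjusted p = 0.0614). The groups did not overlap for any of the 3 genes, and none passed the adjusted threshold. These genes were picked by their p in this same comparison, so the lack of overlap adds no support. Among all genes 14% were higher and 11.6% lower in every SSDS-shACOT12 library.

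In SSDS-GFP against control Pdpr, Pdp2 and Mpc2 had the smallest p of the listed genes. The log2 fold changes were -0.90 ± 0.24 for Pdpr (SE, adjusted p = 0.130) and, for Pdp2, -0.54 ± 0.16 (adjusted p = 0.150). Mpc2, a subunit of the mitochondrial pyruvate carrier, had 144, 120 and 136 CPM in SSDS-GFP and 89.1, 98.3 and 88.4 CPM in control (log2 fold change 0.54 ± 0.12, adjusted p = 0.116). In CSDS against control Pdpr (-0.67 ± 0.24), Mpc2 (0.27 ± 0.12) and Prkag1, a subunit of AMP-activated kinase (0.43 ± 0.14), each had an adjusted p of 0.849. These comparisons share the control libraries.

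In SSDS-shACOT12 against SSDS-GFP the smallest p belonged to Prkab1, another AMP-activated kinase subunit (log2 fold change 0.44 ± 0.17), Pdp1, the other phosphatase catalytic subunit (-0.44 ± 0.18), and Mvd of the mevalonate pathway (0.67 ± 0.28), each with an adjusted p of 0.803. Mvd had 26.4, 17.1 and 51.7 CPM in SSDS-shACOT12 and 21.2, 19.3 and 19.3 CPM in SSDS-GFP. As for Slc25a1 and Acat2, SSDS-shACOT12 3 was the high library.

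The genes closest to each member in pattern were found by the root mean square difference of centred log2 CPM over the 12 libraries, among the 10692 genes whose mean log2 CPM reached 3. They were Bms1 for Acss1 (0.045), Pigq for Acss2 (0.054), Rabggtb for Acly (0.084), Inpp5k for Acaca (0.068) and Kansl2 for Acat1 (0.054). Bex3 lay nearest to Acat2 (0.080), Golga7b to Crat (0.054), Map1lc3a to Slc25a1 (0.087) and Mbd2 to Pdha1 (0.059). For Acacb the nearest of these genes, Cirbp, was 0.356 away. Acacb itself lay below that mean level, so tested genes as low as Acacb were not compared.

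Among the members themselves, the nearest to Acat2 was Slc25a1 (0.188), and the nearest to Slc25a1 was Crat (0.181). Acat1 was nearest to Acss1 (0.093) and the nearest member for Acss2, Acly, Acaca and Pdha1. These distances are small for any genes that vary little, as the low SD of Acat1 shows.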

How the data were processed

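Gene-level tables were used as deposited. Per the submitters' processing notes, the tools were HISAT2 2.0.5 (genome build mm10), featureCounts 1.5.0-p3 and DESeq2. The strand setting, annotation and filters are not given in the sources used here. The authors deposited whole-number counts per gene and FPKM values, whose library size was 0.958 to 1.06 times the count total. Gene length in bases is given per the file headers.

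From the counts, edgeR 4.0.16 in R 4.3.3 kept genes by filterByExpr (minimum count 10, minimum total 15), scaled libraries by TMM and fitted a quasi-likelihood model of group to all 12 libraries. Called means a 2-sided Benjamini-Hochberg adjusted p under 0.05 over all 16915 genes, and adjusted p-values are from this test unless another is named. Ratios of 2 genes used FPKM with an exact permutation test. CPM are from edgeR, with a prior count of 2 on the log2 scale. The tests were tested on simulated data.

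The members and lists were chosen with earlier results of these data known. The genes named were all 10 members, the 3 other listed genes with the smallest p in each comparison and the gene nearest in pattern. Alternatives were DESeq2 1.42.0, limma 3.58.1 (trend on log2 FPKM with 0.1 or 1 added, and voom with quality weights), other filters, scalings and sample sets, a replicate block and each library left out. Deviations from group means correlated at 0.196 to 0.419 between SSDS-shACOT12 and SSDS-GFP libraries of the same number, over the bound of 0.1 in all 3, so these numbers were taken as pairs. Under the block 0 members were called. In no other group pair did all 3 same-number correlations pass that bound. No 2 libraries were duplicates. Promoters are from RefSeq, where 8 of 10 members matched.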

Additional observations from a re-analysis of the deposited data

How the results depend on the processing

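Of 960 alternative values for the 40 comparisons of single members, 912 kept their direction and side of the threshold, 17 passed it newly and 31 changed sign, in 11 comparisons. The cause was not tested. Acss2 in SSDS-shACOT12 against control changed sign under most settings. It was -0.0013 with DESeq2 size factors, -0.00083 with DESeq2, -0.0076 with no filter, -0.0058 with a filter of 50 counts, -0.013 on the 6 libraries, -0.016 on these with the replicate block, -0.0024 and -0.0015 by limma-trend on FPKM with 0.1 and 1 added, and -0.016 without mitochondrial genes. Limma-voom with quality weights gave -0.012 for Pdha1 in SSDS-shACOT12 against SSDS-GFP, and in SSDS-GFP against control -0.016 for Acat1 and 0.065 for Pdha1. The setting without the 3 libraries apart on the first component was chosen after seeing the data and leaves only SSDS-shACOT12 2 in its group. There Acaca (-0.037), Acat1 (-0.0096) and Crat (-0.0071) changed sign in SSDS-shACOT12 against SSDS-GFP. Acss2 (-0.16) and Acaca (-0.17) did so in SSDS-shACOT12 against control, and Pdha1 (0.073) in SSDS-GFP against control.

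With 1 library left out, log2 fold changes ran from -0.085 to 0.088 for Acss2 and -0.014 to 0.29 for Acaca in SSDS-shACOT12 against control. In SSDS-shACOT12 against SSDS-GFP they ran from -0.0091 to 0.44 for Acat2, -0.085 to 0.64 for Acacb, -0.033 to 0.21 for Crat and -0.010 to 0.15 for Pdha1. Pdha1 ran from -0.10 to 0.071 in SSDS-GFP against control and -0.073 to 0.045 in CSDS against control.

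Counts of called genes depended strongly on the setting. With no filter 32777 genes were tested and with the 50-count filter 13212, against 16915 in the main setting, DESeq2 and limma. In SSDS-shACOT12 against control, edgeR's 14 became 1493 with DESeq2, 1741 with no filter, 350 with the 50-count filter, 0 on the 6 libraries with or without the replicate block, 3 with that block on all 12, 24 by limma-trend on FPKM with 1 added, 4172 with quality weights and 735 without the 3 libraries apart. Members called there were 2 with DESeq2 (8.83% of all genes called) and 4 with quality weights (24.7%). With no filter they were 3 (Acacb, Acat2 and Slc25a1), where 1741 of 32777 genes were called. In SSDS-GFP against control, 16 genes became 531 with DESeq2, 608 with no filter, 34 on the 6 libraries and 0 with their replicate block, 9 with the block on all 12, 2239 with quality weights and 216 without the 3 libraries apart. DESeq2, no filter, quality weights and leaving out the 3 libraries each called 1 member there, Acacb. For any difference, 15 genes became 736 (1 member) with DESeq2, 1457 (2 members) with no filter, 8 with the replicate block, 4440 (2 members) with quality weights and 474 without the 3 libraries apart. CSDS against control gave 6, 132, 84, 87, 34 and 30 genes with DESeq2, no filter, the 6 libraries, these with the replicate block, quality weights and the 3 libraries left out. SSDS-shACOT12 against SSDS-GFP gave 108 with no filter and 20 without the 3 libraries apart.

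Leaving out 1 library gave 0 to 985 genes in SSDS-shACOT12 against SSDS-GFP, 0 to 2 in CSDS against control, 4 to 111 in SSDS-GFP against control, 1 to 4232 in SSDS-shACOT12 against control and 1 to 2181 for any difference. The highest of these, except in CSDS against control, came without SSDS-shACOT12 2. Members called ran from 0 to 3 in SSDS-shACOT12 against control and from 0 to 1 for any difference. Against control they were Acat2, Crat and Slc25a1 without SSDS-shACOT12 2 (24.5% of all genes called) and Acat2 without SSDS-shACOT12 1 (1.74%). For any difference it was Slc25a1 without SSDS-shACOT12 2 (12.6%). The exact permutation p ran from 0.00468 to 0.0830 for Acaca to Acacb (adjusted over the 4 ratios, 0.0187 to 0.111), 0.0340 to 0.231 for Acat2 to Acat1 (0.0347 to 0.231), 0.0117 to 0.0282 for Acly to Acss2 (0.0239 to 0.0725) and 0.00948 to 0.0466 for Acss2 to Acss1 (0.0303 to 0.0725). With the replicate block it was 0.0382 for Acss2 to Acss1, 0.0451 for Acaca to Acacb, 0.137 for Acat2 to Acat1 and 0.0226 for Acly to Acss2 (adjusted p = 0.0602 for all but Acat2 to Acat1). Without the 3 libraries apart it was 0.0437 for Acss2 to Acss1, 0.0492 for Acaca to Acacb and 0.0381 for Acly to Acss2 (adjusted p = 0.0656 for each). The block changed no member's call. Depth limits Acacb most, at 22 to 137 counts per library.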
